A study of Mus musculus with 12 samples.

Results

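The 31 genes described here encode the enzymes and carriers of fatty acid oxidation, which activate fatty acids, carry them into mitochondria and cleave them in mitochondria and peroxisomes. They were chosen by symbol, with earlier results of these data known, so counts and medians over them are descriptions only. All 31 were found among the 54532 rows of the deposited table and were among the 14179 genes tested. RNA came from the colon of mice labelled WT, of strain C57BL/6J, in 4 groups of 3 libraries. The HFD+DSS group had a high-fat diet (HFD) with 2% dextran sulfate sodium (DSS), a polymer that injures the colonic epithelium of rodents. The CD+DSS group had a diet labelled CD with 2% DSS, the HFD group had the high-fat diet alone and the CD group had the CD diet alone. The labels do not spell out CD, and they give no age, sex, dosing schedule or segment of colon. Nothing in them says that the 3 libraries of a group came from separate animals, so p-values measure the spread between these libraries, which may be technical.

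Fatty acids are joined to coenzyme A by acyl-CoA synthetases, handed to carnitine at the outer mitochondrial membrane and shortened in the matrix by repeated rounds of dehydrogenation, hydration, dehydrogenation and thiolysis. Very long and branched chains are first shortened in peroxisomes, which have their own enzymes. Colonocytes are known to draw much of their energy from oxidising butyrate made by gut bacteria, and the nuclear receptors PPARα, PPARδ and PPARγ are known to drive many of the genes when they bind fatty acids.

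Levels are FPKM, fragments scaled to gene length and library size, and fold changes are differences of log2(FPKM + 1) with their standard error (SE) from a single limma fit over all 12 libraries. Calls were made where limma's p, adjusted over all 14179 genes by the Benjamini-Hochberg method, was under 0.05. The libraries held 14700000 to 17900000 fragments over genes. Markers of colonic epithelium were high in every library, with the summed FPKM of 10 general epithelial markers such as Epcam between 4839 and 11042 and that of 10 absorptive colonocyte markers between 4434 and 17248. Of 4 brown fat markers, Elovl3 was at 0 in every library and Ucp1 and Cidea were under FPKM 1. The remaining marker, Cox7a1, averaged 20.3 in HFD+DSS, 18.2 in CD+DSS, 15.7 in HFD and 17.1 in CD. The summed FPKM of 5 hepatocyte markers was at most 24.1. Adipocyte and liver cells burn fatty acids too, and in such bulk tissue fewer cells of a type and less RNA per cell cannot be told apart.

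Long-chain acyl-CoA dehydrogenase, electron transfer flavoprotein and the mitochondrial thiolase had the highest levels per gene length. Acadl, the dehydrogenase, averaged FPKM 104 over the 12 libraries, Etfa, the flavoprotein's alpha subunit, 101, and Acaa2, the thiolase, 94.0. The first place of Acadl rests on HFD+DSS replicate 1, at FPKM 261. Without that library Acadl averaged 89.5, below Etfa at 100.1 and Acaa2 at 96.1, and in CD it averaged 65.9 against 88.3 for Etfa and 74.0 for Acaa2. Acads, the short-chain dehydrogenase that acts on butyryl-CoA, Ech1, an auxiliary isomerase, and Cpt1a, the carnitine acyltransferase of the outer membrane, followed at 85.9, 85.2 and 81.0. Hadh, the medium and short-chain hydroxyacyl-CoA dehydrogenase, was the seventh gene with a mean of 50 or more, at 53.8. A further 19 genes averaged between 10 and 50, and 5 averaged under 10. The lowest were Acot1 at 1.82 and Acot2 at 3.40, cytosolic and mitochondrial acyl-CoA thioesterases, and Acsl1, an acyl-CoA synthetase, at 3.12, whereas its relative Acsl5 averaged 25.3. Neighbours in this order overlapped in their ranges, except Eci2, which lay above Acot2 in every library, and Acads, Ech1 and Cpt1a cannot be ranked against each other. The order also depends on gene length, here all annotated exons together, at 8730 bases for Hadha and 1516 for Acaa2. In fragments per library Hadha was above Acaa2, at 4656 to 8134 against 1617 to 3311. Acsl1 was below Acsl5 in fragments too, at 209 to 811 against 1763 to 2220.

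**Figure D1:**
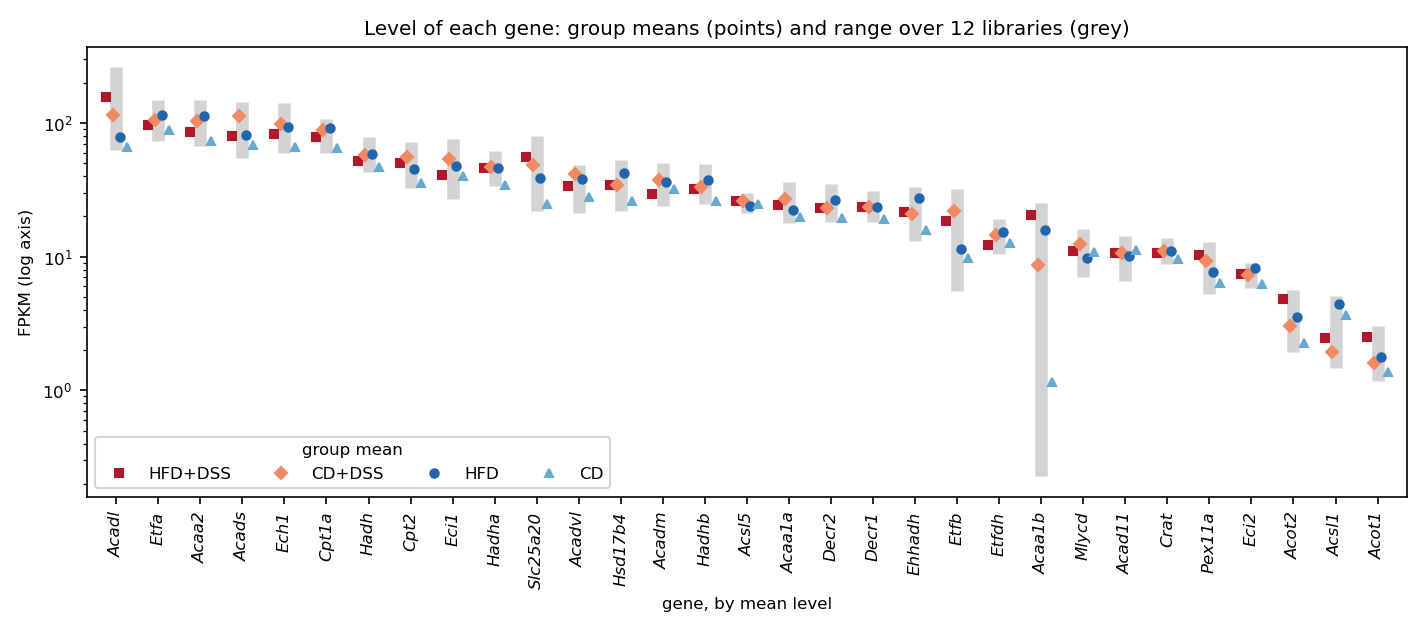
FPKM (log axis) of the 31 genes, ordered by their mean over 12 libraries, with the group means of HFD+DSS, CD+DSS, HFD and CD as points and the range over 12 libraries in grey. Levels run from Acadl at 104 to Acot1 at 1.82, and the grey range is longest for Acaa1b, from 0.227 to 25.3.

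The highest library was under 2 times the lowest for 10 of the 31 genes, between 2 and 5 times for 19 and over 5 times for the other two. Etfb, the beta subunit of the flavoprotein, spanned FPKM 5.503 to 32.4, and Acaa1b, a peroxisomal thiolase, spanned 0.227 to 25.3, a ratio of 112. CD had the lowest of the 4 group means for 25 of the 31 genes. HFD had the highest for 12, CD+DSS for 11, HFD+DSS for 7 and CD for 1, which was Acad11, a member of the acyl-CoA dehydrogenase family.

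In CD+DSS, HFD and CD a single library had the highest value of most genes. CD+DSS replicate 2 was the highest of its group for 30 of 31 genes and the highest of all 12 libraries for 12. HFD replicate 3 was the highest of its group for 27 and the highest of 12 for 10. CD replicate 3 was the highest of its group for 18. HFD replicate 2 was the lowest of its group for 29, and CD+DSS replicate 3 and CD replicate 2 for 22 each. These libraries moved the same way in the epithelial markers, whose summed FPKM was 11042 in CD+DSS replicate 2 against 8889 and 6969 in the other CD+DSS libraries. It was 7307 in HFD replicate 3, 5909 in HFD replicate 1 and 4839 in HFD replicate 2. In CD the sums lay closer together, at 6479 in replicate 3, 6380 in replicate 1 and 5819 in replicate 2.

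**Figure D2:**
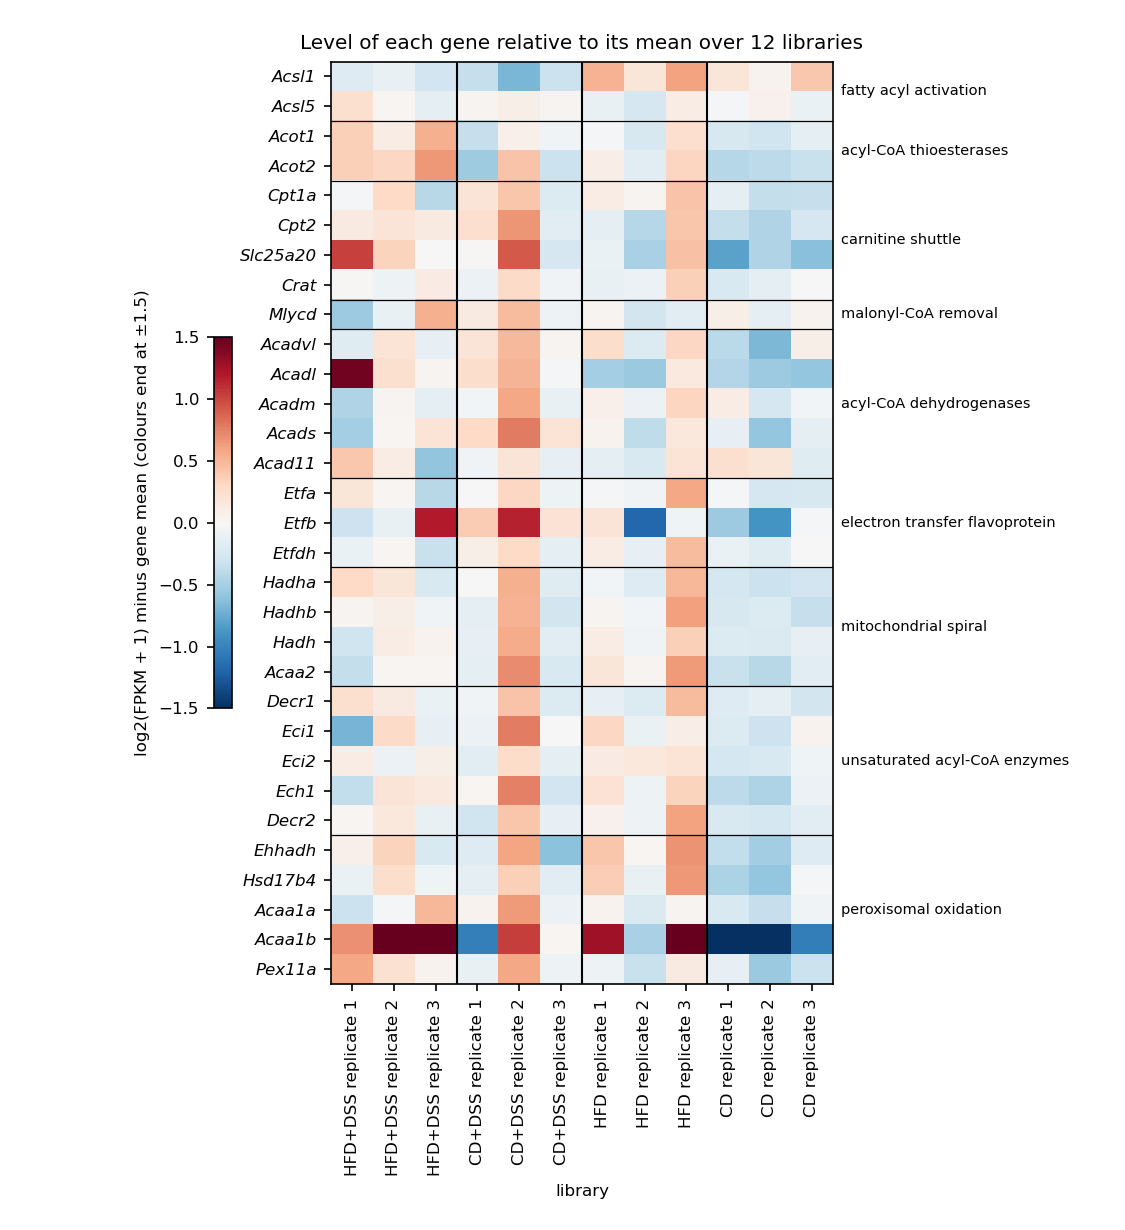
Heat map of log2(FPKM + 1) minus the gene's mean over 12 libraries, 1 row per gene by role and 1 column per library. CD+DSS replicate 2 and HFD replicate 3 are above the mean for 30 and 29 of 31 genes, and the CD libraries for 4, 3 and 4.

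Promoters are shown for the pair of peroxisomal thiolases, which differed most in their spread, and for the genes with a near match to the PPAR motif. That motif is a direct repeat of AGGTCA with 1 base between, AGGTCANAGGTCA. It was searched on both strands over its 12 fixed letters in windows from 250 bases before to 50 after the start, which RefSeq's table for GRCm38.p6 gives for 27 of the 31 genes in 28 windows. Capitals mark the closest match to the repeat, or the first one found where others were equally close. It had 2 mismatches in Slc25a20 and Etfa, 4 in Acaa1b and 5 in Acaa1a. The windows are chr9:119157044-119157343 on the minus strand (Acaa1b), chr9:119341044-119341343 on the plus strand (Acaa1a), chr9:108661886-108662185 on the plus strand (Slc25a20) and chr9:55512194-55512493 on the minus strand (Etfa).
Acaa1b: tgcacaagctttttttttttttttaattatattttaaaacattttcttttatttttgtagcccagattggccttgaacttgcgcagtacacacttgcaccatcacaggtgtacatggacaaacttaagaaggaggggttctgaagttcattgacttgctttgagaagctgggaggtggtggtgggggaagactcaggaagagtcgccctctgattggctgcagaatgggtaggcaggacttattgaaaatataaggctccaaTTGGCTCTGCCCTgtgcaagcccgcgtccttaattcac
Acaa1a: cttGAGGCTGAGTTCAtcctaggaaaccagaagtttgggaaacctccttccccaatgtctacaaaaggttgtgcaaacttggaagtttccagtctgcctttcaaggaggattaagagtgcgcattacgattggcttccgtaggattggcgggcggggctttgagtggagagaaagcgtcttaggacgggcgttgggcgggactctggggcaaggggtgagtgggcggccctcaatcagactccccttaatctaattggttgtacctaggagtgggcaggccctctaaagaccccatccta
Slc25a20: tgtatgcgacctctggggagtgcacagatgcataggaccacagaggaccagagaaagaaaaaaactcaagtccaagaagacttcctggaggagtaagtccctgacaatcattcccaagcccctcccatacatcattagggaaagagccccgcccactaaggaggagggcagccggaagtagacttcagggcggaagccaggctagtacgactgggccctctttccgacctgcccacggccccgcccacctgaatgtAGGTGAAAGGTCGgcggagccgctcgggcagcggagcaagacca
Etfa: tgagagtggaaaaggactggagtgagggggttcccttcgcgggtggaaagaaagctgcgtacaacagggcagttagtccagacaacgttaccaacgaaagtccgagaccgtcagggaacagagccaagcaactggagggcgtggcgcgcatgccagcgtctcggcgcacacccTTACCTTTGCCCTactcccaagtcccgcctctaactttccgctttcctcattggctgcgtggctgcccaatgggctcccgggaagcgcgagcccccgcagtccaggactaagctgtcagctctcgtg
A match with at most 2 mismatches stood in 2 of the 28 windows (7.14%) and in 3.86% of the 32851 windows of all genes. With at most 1 mismatch it stood in 0 of 28 and in 0.554% of all. A single AGGTCA on either strand stood in 3 of 28 (10.7%) and in 16.3% of all. A match is a description of letters and not a binding site. The Acaa1b and Acaa1a windows were identical at 49.4% of the columns of a global alignment. The annotated genes of the trifunctional protein's subunits, Hadha and Hadhb, lie on opposite strands with 85 bases between them. Their windows, which are set on RefSeq's starts, share 228 bases (chr5:30155003-30155230).

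In HFD against CD, which asks what the diet did without DSS, 28 of the 31 genes had a positive fold change, with a median of 0.31 on the log2 scale. Over all genes 45.9% were positive and the median was -0.016. None of the 31 was called by limma (0% of all genes were), 0 were called by voom on recovered fragments, and 5 were at an unadjusted p under 0.05, all with HFD above CD, against 1.77% of all genes. The groups did not overlap, with HFD higher, for 11 of 31 genes, against 4.61% of all genes, and with HFD lower for 0, against 5.02%. Without HFD replicate 3 the median was 0.14.

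Peroxisomal genes held the largest differences between HFD and CD. Acaa1b was at FPKM 12.0, 24.0 and 25.3 in the HFD+DSS libraries, 2.99, 15.7 and 7.31 in CD+DSS, 18.7, 4.82 and 24.2 in HFD and 0.244, 0.227 and 2.97 in CD. The HFD libraries were all above the CD libraries, and CD replicates 1 and 2 were near 0 with 8 and 7 fragments against 97 in CD replicate 3. Its fold change was 2.97 ± 0.66 (limma adjusted p = 0.711), the smallest p of the 31 in this comparison. Ehhadh was at FPKM 21.7, 26.2 and 17.4 in the HFD+DSS libraries, 17.9, 31.4 and 13.1 in CD+DSS, 27.8, 20.9 and 33.4 in HFD and 15.7, 14.0 and 17.8 in CD. Ehhadh, the peroxisomal bifunctional enzyme of hydration and dehydrogenation, did not overlap between HFD and CD, but CD+DSS replicate 2 was nearly as high as the highest HFD library. It differed by 0.74 ± 0.28 (limma adjusted p = 1). Hsd17b4 was at FPKM 30.8, 40.2 and 31.8 in the HFD+DSS libraries, 29.99, 42.9 and 29.6 in CD+DSS, 43.2, 30.6 and 52.9 in HFD and 23.5, 21.9 and 32.5 in CD. Hsd17b4, the other peroxisomal multifunctional enzyme, overlapped between the diets and differed by 0.67 ± 0.24 (limma adjusted p = 0.979). Acaa1a, the other peroxisomal thiolase, averaged 22.4 ± 2.36 in HFD and 19.8 ± 2.16 in CD (SD, n = 3 each), and Pex11a, a peroxisome division factor, 7.74 ± 1.41 in HFD and 6.36 ± 1.07 in CD.

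The mitochondrial core of the pathway showed smaller differences in the same direction. All 4 genes of the mitochondrial spiral had HFD above CD with no overlap, as did 4.61% of all genes, and differed by 0.32 to 0.59. Acaa2 was at FPKM 70.9, 93.0 and 92.9 in the HFD+DSS libraries, 83.1, 149 and 77.7 in CD+DSS, 103, 93.8 and 142 in HFD and 72.3, 67.9 and 81.7 in CD. The HFD libraries were above every CD library, by 0.59 ± 0.26 (limma adjusted p = 1). Hadha, the trifunctional alpha subunit, averaged 46.4 ± 12.6 in HFD and 34.6 ± 0.716 in CD, Hadhb, its beta subunit, 37.5 ± 10.1 in HFD and 26.1 ± 1.31 in CD, and Hadh 58.8 ± 8.75 in HFD and 46.7 ± 1.59 in CD. The 5 enzymes that handle double bonds differed by 0.25 to 0.47. Eci2 was at FPKM 7.88, 6.77 and 7.74 in the HFD+DSS libraries, 6.31, 9.00 and 6.49 in CD+DSS, 7.97, 8.22 and 8.48 in HFD and 5.86, 6.02 and 6.89 in CD. Eci2, an enoyl-CoA isomerase of peroxisomes and mitochondria, was higher in each HFD library than in each CD library and differed by 0.35 ± 0.14 (limma adjusted p = 1). Ech1 was at FPKM 64.0, 94.7 and 91.3 in the HFD+DSS libraries, 84.7, 140.2 and 67.7 in CD+DSS, 96.2, 78.4 and 105 in HFD and 62.6, 59.7 and 77.8 in CD. The mitochondrial and peroxisomal isomerase Ech1 did not overlap between HFD and CD either, and nor did Decr2, the peroxisomal dienoyl-CoA reductase, at 26.8 ± 7.25 in HFD and 19.5 ± 0.698 in CD. Its mitochondrial relative Decr1 averaged 23.4 ± 6.66 in HFD and 19.0 ± 0.881 in CD, and Eci1, the mitochondrial enoyl-CoA isomerase, 48.0 ± 6.95 in HFD and 40.0 ± 5.39 in CD, both with overlap.

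Entry into mitochondria differed less evenly between the diets. Cpt1a was at FPKM 77.9, 97.7 and 59.4 in the HFD+DSS libraries, 91.0, 106 and 68.6 in CD+DSS, 85.6, 81.7 and 107 in HFD and 72.5, 61.7 and 62.0 in CD. Cpt1a did not overlap between HFD and CD, with a fold change of 0.47 ± 0.22, and the DSS groups overlapped with both. Cpt2, which returns the acyl group to coenzyme A inside the mitochondrion, averaged 45.2 ± 14.2 in HFD and 35.3 ± 2.51 in CD, Slc25a20, the carnitine carrier of the inner membrane, 38.8 ± 12.99 in HFD and 24.9 ± 3.17 in CD, and Crat, carnitine acetyltransferase, 11.1 ± 2.30 in HFD and 9.58 ± 0.840 in CD. Mlycd was at FPKM 7.03, 9.90 and 16.1 in the HFD+DSS libraries, 11.9, 15.4 and 10.1 in CD+DSS, 11.0, 8.73 and 9.40 in HFD and 11.5, 9.60 and 11.2 in CD. Mlycd, malonyl-CoA decarboxylase, which removes the inhibitor of Cpt1a, overlapped between all groups. With Acsl5 and Acad11 it was one of the 3 genes with a negative fold change in HFD against CD, and those were -0.14 for Mlycd, -0.062 for Acsl5 and -0.13 for Acad11. Acsl5 was at FPKM 29.9, 25.7 and 22.9 in the HFD+DSS libraries, 26.1, 26.9 and 26.0 in CD+DSS, 23.4, 21.1 and 27.3 in HFD and 24.8, 26.5 and 23.4 in CD. Acsl5 was the steadiest of the 31 genes, its highest library being 1.42 times its lowest.

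**Figure D3:**
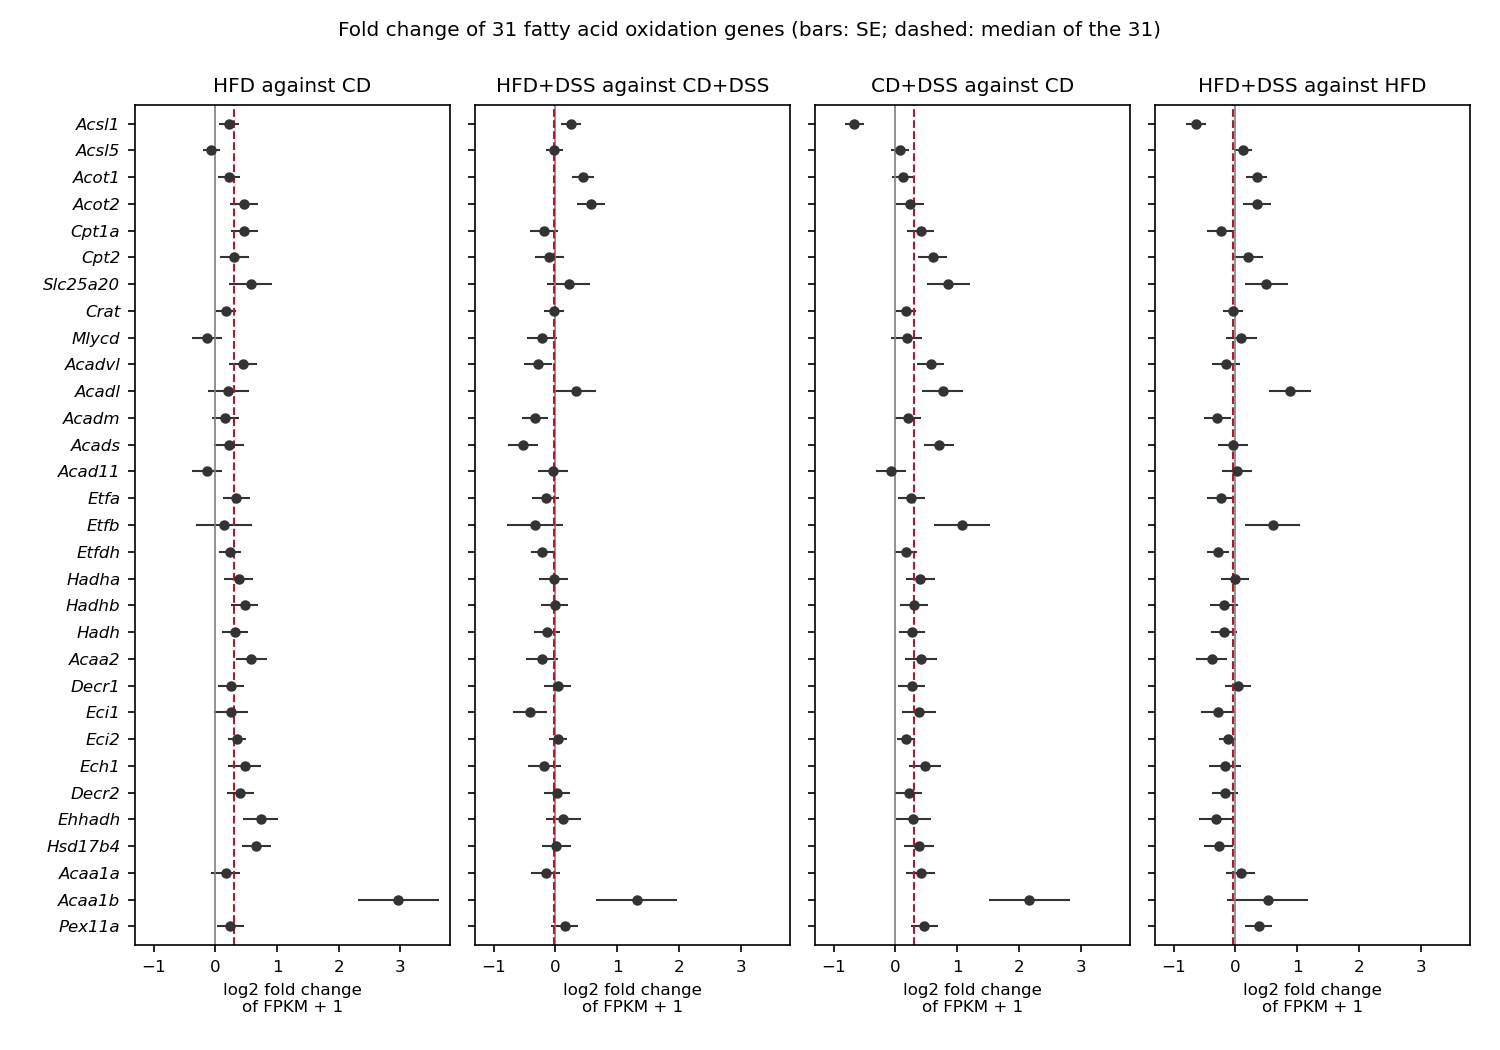
Log2 fold changes of FPKM + 1 (points) with SE (bars) of the 31 genes in 4 comparisons, with the median of the 31 as a dashed line. The medians are 0.31 in HFD against CD and 0.30 in CD+DSS against CD, and -0.029 in HFD+DSS against CD+DSS and -0.035 in HFD+DSS against HFD.

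In HFD+DSS against CD+DSS, the same diets under DSS, 12 of 31 genes had a positive and 19 a negative fold change (45.4% of all genes were positive), and the median was -0.029. The direction rests on single libraries: without CD+DSS replicate 2 the median was 0.11 with 21 genes positive and 10 negative, and without HFD+DSS replicate 3 it was 0.022 with 17 positive and 14 negative. Limma called 0 of 31 (0% of all genes) and voom 0, with 2 at an unadjusted p under 0.05, both higher in HFD+DSS, against 2.77% of all genes, and 0 lower, against 3.84%. The 2 higher genes were the acyl-CoA thioesterases, which release free fatty acids from coenzyme A. Acot2 was at FPKM 4.42, 4.28 and 5.65 in the HFD+DSS libraries, 1.93, 4.72 and 2.38 in CD+DSS, 3.54, 2.81 and 4.31 in HFD and 2.16, 2.23 and 2.38 in CD. In HFD+DSS it was above every CD+DSS library except replicate 2, with a fold change of 0.58 ± 0.23 (limma adjusted p = 0.739). Acot1 was at FPKM 2.56, 2.00 and 3.01 in the HFD+DSS libraries, 1.18, 1.91 and 1.68 in CD+DSS, 1.71, 1.35 and 2.30 in HFD and 1.35, 1.25 and 1.52 in CD. Acot1 did not overlap between HFD+DSS and CD+DSS and differed by 0.44 ± 0.18 (limma adjusted p = 0.739). With Acsl1 it was 1 of 2 genes whose groups did not overlap with HFD+DSS higher, against 3.6% of all genes, and 0 did so with HFD+DSS lower, against 5.85%. Acads was 79.8 ± 19.5 in HFD+DSS and 114 ± 25.5 in CD+DSS (SD, n = 3 each), a fold change of -0.52 ± 0.24 (limma adjusted p = 0.749). Acaa1b again had a higher mean in HFD+DSS than in CD+DSS, by 1.32 ± 0.66 (limma adjusted p = 0.749), with 1 CD+DSS library inside the HFD+DSS range.

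Averaged over both DSS states, 24 of 31 genes had a positive diet fold change (44.1% of all genes) with a median of 0.14, and limma called 0 (0% of all genes). At an unadjusted p under 0.05 stood 3 genes, all with HFD higher, against 1.77% of all genes, and 0 genes with HFD lower, against 2.9%. In 0 of 31 genes were all 6 high-fat libraries above all 6 others, against 0.0494% of all genes. The 3 genes were Acaa1b at 2.14 ± 0.47, Acot2 at 0.53 ± 0.16 and Acot1 at 0.33 ± 0.12 (limma adjusted p = 0.581, 0.827 and 0.912).

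In CD+DSS against CD, the response to DSS on the CD diet, 29 of 31 genes had a positive fold change (51.5% of all genes) with a median of 0.30, against 0.012 over all genes. Limma called 0 of 31, where it called 0.0705% of all genes higher and 0.0141% lower, and voom called 0. At an unadjusted p under 0.05, 7 were higher (8.67% of all genes) and 1 was lower (6.49%). The groups did not overlap for 8 genes with CD+DSS higher (13.7%) and for 1 with CD+DSS lower (10.4%). The CD libraries also serve HFD against CD, and each group enters more than 1 comparison, so these results are not independent of each other. Without CD+DSS replicate 2 the median was 0.11.

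The dehydrogenases and the carnitine shuttle held 5 of the 7 higher genes, and Etfb and Acaa1b were the others. Acads was at FPKM 58.3, 85.0 and 96.1 in the HFD+DSS libraries, 103, 143 and 95.9 in CD+DSS, 86.2, 63.9 and 93.0 in HFD and 76.0, 55.1 and 75.6 in CD. The CD+DSS libraries were the highest of the 4 groups but for HFD+DSS replicate 3, which was level with the lowest of them, and they differed from CD by 0.71 ± 0.24 (limma adjusted p = 0.229). Cpt2 was at FPKM 49.9, 52.1 and 49.8 in the HFD+DSS libraries, 54.3, 72.4 and 40.4 in CD+DSS, 41.3, 33.4 and 60.9 in HFD and 35.2, 32.8 and 37.9 in CD. The CD+DSS libraries were all above the CD libraries, by 0.61 ± 0.24 (limma adjusted p = 0.277), although the lowest exceeded the highest CD library by little. Slc25a20 averaged 48.8 ± 22.6 in CD+DSS and 24.9 ± 3.17 in CD (fold change 0.86 ± 0.35; limma adjusted p = 0.286), and Etfb 22.0 ± 8.44 in CD+DSS and 9.77 ± 3.29 in CD (1.08 ± 0.45; limma adjusted p = 0.30). Acadvl was at FPKM 30.2, 39.9 and 31.6 in the HFD+DSS libraries, 39.7, 48.7 and 35.5 in CD+DSS, 41.5, 29.7 and 42.9 in HFD and 25.8, 21.3 and 36.6 in CD. Acadvl, the very long-chain dehydrogenase, overlapped between CD+DSS and CD at its highest CD library and differed by 0.57 ± 0.22 (limma adjusted p = 0.278). Acadm, the medium-chain dehydrogenase, averaged 37.7 ± 10.8 in CD+DSS and 31.9 ± 4.06 in CD.

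Acadl, whose enzyme opens the cycle for long chains, had the highest single value of the 31 genes. Acadl was at FPKM 261, 112 and 97.5 in the HFD+DSS libraries, 114, 135 and 92.6 in CD+DSS, 66.4, 63.9 and 105 in HFD and 69.7, 64.8 and 63.1 in CD. HFD+DSS replicate 1 stood far above every other library, and the DSS libraries overlapped with HFD replicate 3. The fold change was 0.77 ± 0.33 in CD+DSS against CD (limma adjusted p = 0.316) and 0.88 ± 0.33 in HFD+DSS against HFD (limma adjusted p = 0.287), or 0.45 without HFD+DSS replicate 1. Acaa1b was above CD in every CD+DSS library as well, by 2.17 ± 0.66 (limma adjusted p = 0.192). Pex11a was at FPKM 12.8, 9.77 and 8.56 in the HFD+DSS libraries, 7.55, 12.8 and 7.75 in CD+DSS, 7.75, 6.32 and 9.14 in HFD and 7.42, 5.28 and 6.39 in CD. In CD+DSS the peroxisome division factor lay just above the CD range, by 0.47 ± 0.22, and in HFD+DSS it overlapped with HFD, with a fold change of 0.37 ± 0.22.

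In HFD+DSS against HFD, 13 genes had a positive and 18 a negative fold change (50.9% of all genes were positive), with a median of -0.035. Without HFD replicate 3 the median was 0.072, with 18 genes positive and 13 negative. Limma called 0 of 31, where it called 0.247% of all genes higher and 0.0917% lower, and voom called 0. At an unadjusted p under 0.05 stood Acadl, higher (7.34% of all genes), and Acsl1, lower (6.23%). The groups did not overlap for 0 genes with HFD+DSS higher (8.82%) and for 3 with HFD+DSS lower (7.6%), which were Acsl1, Acaa2 and Eci2. Acaa2 averaged 85.6 ± 12.7 in HFD+DSS and 113 ± 25.8 in HFD, and Eci2 7.46 ± 0.608 in HFD+DSS and 8.22 ± 0.254 in HFD (SD, n = 3 each).

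Acsl1, a long-chain acyl-CoA synthetase that activates fatty acids, was the single gene of the 31 that passed the test in any comparison, and it fell with DSS averaged over the diets. In that comparison 26 of 31 genes had a positive fold change (50.9% of all genes), with a median of 0.10, and 6 were higher at an unadjusted p under 0.05 (13% of all genes) without passing the test. Those were Acaa1b at 1.35 ± 0.47, Etfb at 0.84 ± 0.32, Acadl at 0.83 ± 0.24, Slc25a20 at 0.68 ± 0.24, Pex11a at 0.42 ± 0.15 and Cpt2 at 0.40 ± 0.17 (limma adjusted p from 0.0809 to 0.181). Acsl1 alone was lower at that p (10.5% of all genes). Acsl1 was at FPKM 2.49, 2.67 and 2.26 in the HFD+DSS libraries, 2.12, 1.48 and 2.19 in CD+DSS, 4.71, 3.53 and 5.05 in HFD and 3.51, 3.14 and 4.26 in CD. All 6 DSS libraries were below all 6 libraries without DSS, and CD+DSS replicate 2, the library in which 12 of the genes were highest, had the lowest Acsl1. Over all genes 1.29% had all 6 DSS libraries below the others. Averaged over the diets the fold change was -0.65 ± 0.11 (limma adjusted p = 0.0156), while limma called 0.875% of all genes lower and 1.87% higher in that comparison, and voom on recovered fragments called it too. It was -0.66 ± 0.16 on the CD diet and -0.63 ± 0.16 on the high-fat diet (limma adjusted p = 0.124 and 0.135), and the interaction was 0.029 ± 0.23. The call was lost with the epithelial level as a covariate (-0.66 ± 0.16, limma adjusted p = 0.17) and without CD+DSS replicate 2 and HFD replicate 3 together (-0.55 ± 0.11, limma adjusted p = 0.0539), an exclusion chosen after seeing the data. Acsl1 (ENSMUSG00000018796) lies on mm10 chromosome 8, 46471037 to 46536051, and shares 9.9% of its exon bases with Gm45244 on the other strand, which was at FPKM 0.077 or less. Averaged over the diets, 1 of 9 tested adipocyte markers was positive with DSS and 8 were negative (median -0.56), and limma called 0 of them. In HFD+DSS against HFD 0 of 9 tested markers were positive (median -1.12), while in CD+DSS against CD 6 of 9 were (median 0.16), with summed FPKM of 40.7 to 194 in HFD+DSS, 68.3 to 127 in CD+DSS, 97.3 to 298 in HFD and 31.8 to 166 in CD. None of their 10 genes was at 0 in every library, and their part in the Acsl1 result was not tested.

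**Figure D4:**
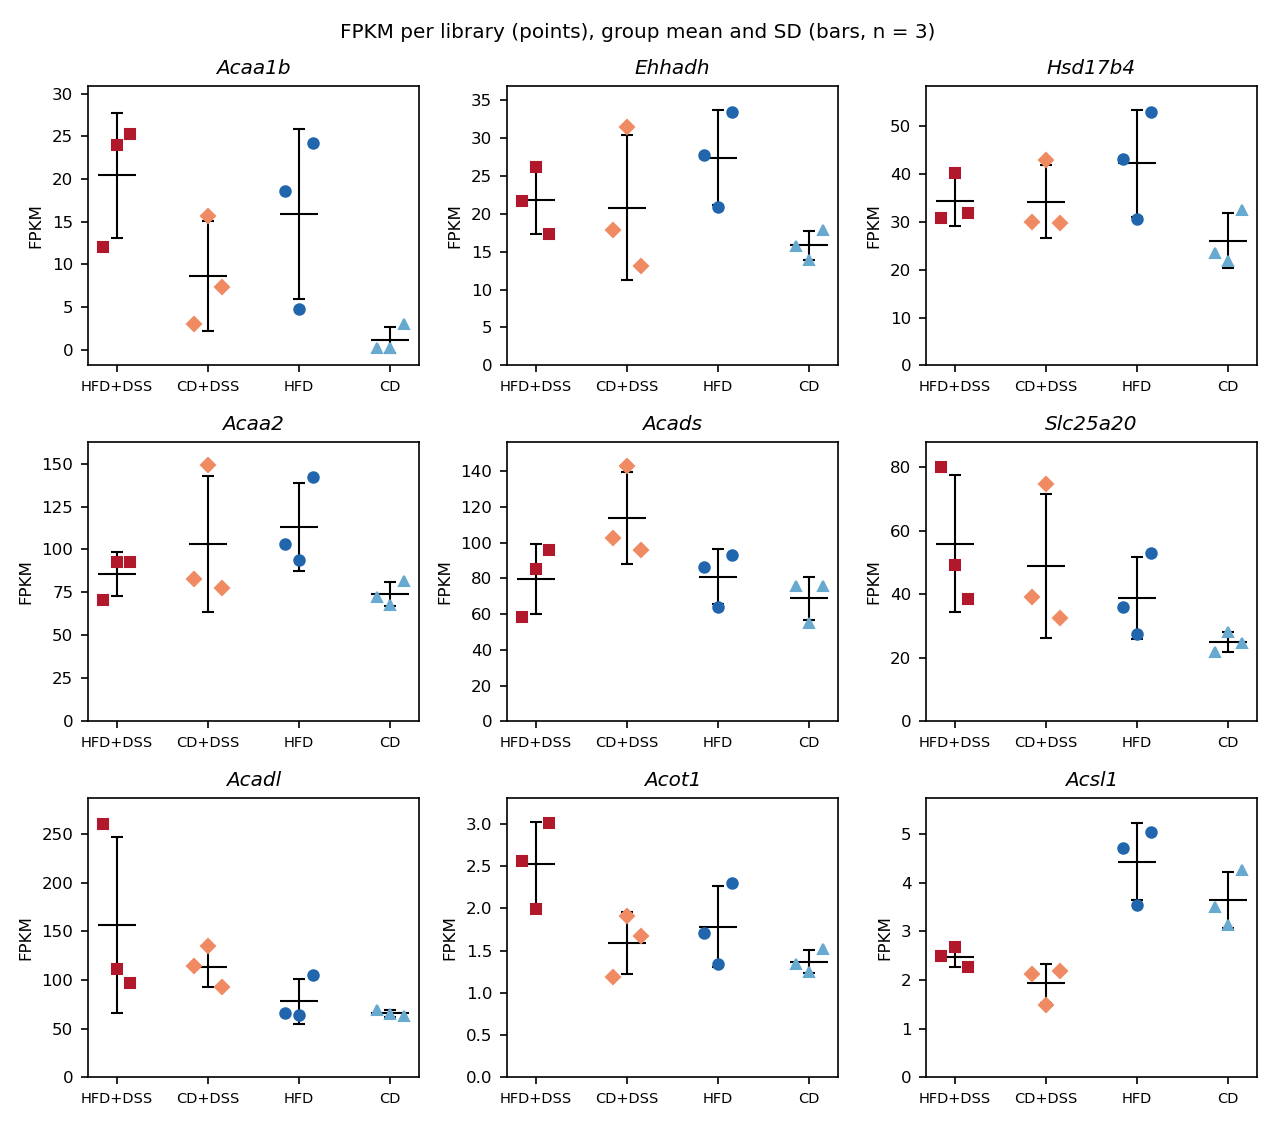
FPKM per library (points) of 9 of the genes, with group mean and SD as bars, n = 3 libraries in each of HFD+DSS, CD+DSS, HFD and CD. Acsl1 is at 1.48 to 2.67 in the 6 DSS libraries and at 3.14 to 5.05 in the 6 others, and Acaa1b is at most 2.97 in CD.

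The interaction, in which the DSS difference on the CD diet is taken from that on the high-fat diet, was negative for 25 of 31 genes (49% of all genes were positive), with a median of -0.41 against -0.0071 over all genes. Limma called 0 of 31 (0% of all genes) and voom 0, and 2 were at an unadjusted p under 0.05, both negative (2.73% of all genes), and 0 were positive at that p (2.69%). The 2 genes were Acaa2 at -0.80 ± 0.36 (limma adjusted p = 0.913) and Acadvl at -0.73 ± 0.32 (limma adjusted p = 0.890). Acads had -0.74 ± 0.34 and Cpt1a -0.66 ± 0.31. All 5 peroxisomal genes, all 5 genes for unsaturated chains and all 4 of the spiral were negative, and both synthetases and both thioesterases positive. The median was -0.20 without CD+DSS replicate 2, -0.28 without HFD replicate 3 and -0.046 without both.

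Etfa was at FPKM 113, 101 and 74.0 in the HFD+DSS libraries, 99.9, 124 and 94.4 in CD+DSS, 97.4, 96.2 and 149 in HFD and 97.4, 83.4 and 84.2 in CD. Etfa and Etfdh, which pass electrons from the dehydrogenases to the respiratory chain, overlapped between all groups, and Etfdh averaged 12.3 ± 1.66 in HFD+DSS, 14.5 ± 2.39 in CD+DSS, 15.4 ± 3.47 in HFD and 12.6 ± 0.882 in CD.

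The ratio of the genes to epithelial markers of the same library depended on which markers were used. Their summed FPKM per 100 FPKM of the 10 epithelial markers was 18.8, 17.0 and 15.1 in HFD+DSS, 12.7, 14.8 and 14.4 in CD+DSS, 19.3, 19.9 and 19.8 in HFD and 14.3, 14.3 and 14.6 in CD. All 6 libraries of the high-fat diet were above all 6 of the CD diet, and other gene sets were not tested for this. Under DSS the genes themselves did not sum higher on the high-fat diet, at a mean of 1185 in HFD+DSS and 1257 in CD+DSS. The epithelial marker sum was lower there, at a mean of 7014 in HFD+DSS and 8966 in CD+DSS. Without DSS the genes summed to a mean of 1186 in HFD and 897 in CD, and the markers to 6018 in HFD and 6226 in CD. Per 100 FPKM of the 10 absorptive colonocyte markers the diets overlapped, at 12.6, 19.7 and 23.0 in HFD+DSS, 17.0, 11.4 and 15.8 in CD+DSS, 16.8, 18.04 and 8.41 in HFD and 16.8, 18.8 and 14.2 in CD. The mean of that ratio was lower in HFD than in CD, at 14.4 ± 5.23 in HFD and 16.6 ± 2.29 in CD (SD, n = 3 each). Car1 weighed heavily on this marker sum, averaging 7065 in HFD and 2202 in CD, with 14081 of 17248 in HFD replicate 3. Of the 10 absorptive markers 3 were positive and 7 negative in HFD against CD. Their mean log2 level was 7.40 ± 0.48 in HFD and 7.76 ± 0.38 in CD, the reverse order of the sums. The 10 general epithelial markers themselves were higher in CD+DSS than in CD for 10 of 10 genes (median 0.49) and lower in HFD+DSS than in CD+DSS for 10 of 10 (median -0.33). In HFD against CD they were positive for 3 and negative for 7 (median -0.036). Limma called 0 of the 10 in these comparisons.

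**Figure D5:**
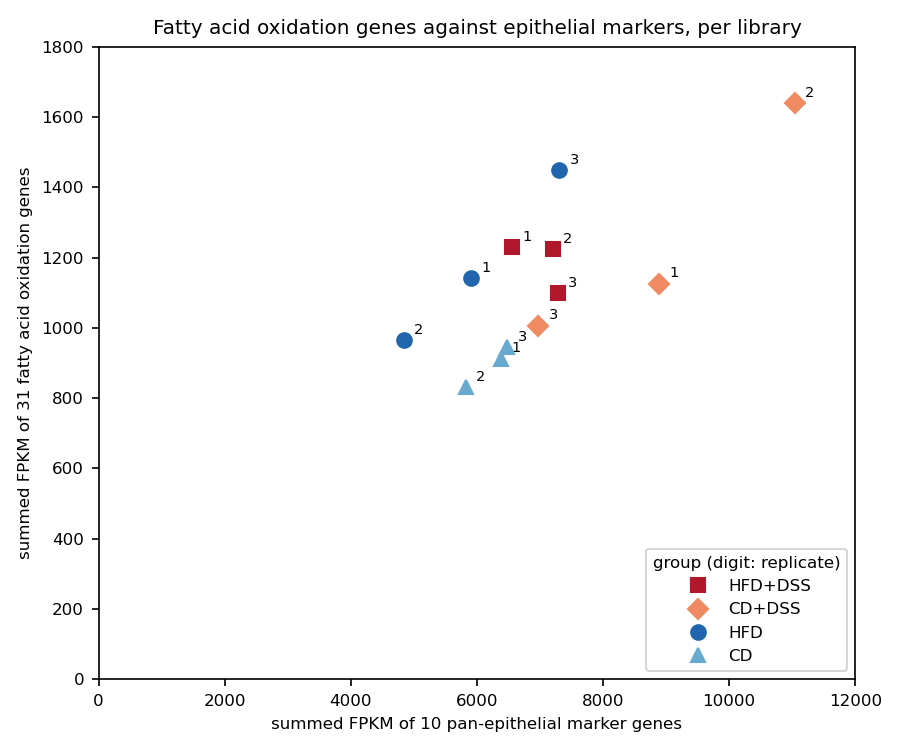
Summed FPKM of the 31 genes against summed FPKM of 10 epithelial marker genes, 1 point per library, the digit being the replicate. HFD+DSS and HFD points lie above CD+DSS and CD points of like epithelial level, at 15.1 to 19.9 against 12.7 to 14.8 per 100 FPKM of markers.

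With the mean log2 level of the 10 epithelial markers as a covariate in the fit, most genes were positive for the diet under DSS too. In HFD against CD 28 of 31 genes were positive (46.8% of all genes) with a median of 0.38, and 18 were at an unadjusted p under 0.05 with HFD higher (2.64% of all genes) and 0 with HFD lower (2.34%). In HFD+DSS against CD+DSS 28 were positive (49%) with a median of 0.26, and 9 were at that p (2.33%). For DSS on the CD diet the sign of the median turned. In CD+DSS against CD 7 of 31 were positive (48%) with a median of -0.11, and in HFD+DSS against HFD 7 were positive (50.1%) with a median of -0.24, and 11 were at an unadjusted p under 0.05 with HFD+DSS lower (6.38%). Limma called 0 of the 31 in each of these fits. The covariate was measured in the same libraries, and it differed between the groups compared.

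Markers of other tissue differed between the groups as well, although limma called 0 of them in these comparisons. Adipocyte markers were positive in HFD against CD for 9 of 9 tested genes (median 1.70) and in HFD+DSS against CD+DSS for 8 of 9 (median 0.31). At an unadjusted p under 0.05, 7 of the 9 were higher in HFD than in CD (1.77% of all genes) and 0 lower (2.38%). Under DSS 1 was higher at that p (2.77%) and 1 lower (3.84%). The 3 posterior Hox genes, which mark the distal gut, were negative in HFD against CD for 3 of 3 (median -1.34) and in CD+DSS against CD for 3 of 3 (median -2.06). They were positive in HFD+DSS against CD+DSS for 3 of 3 (median 2.90) and in HFD+DSS against HFD for 3 of 3 (median 2.18). Their summed FPKM was 46.6 to 92.8 in HFD+DSS, 1.62 to 40.5 in CD+DSS, 7.04 to 34.7 in HFD and 38.3 to 111 in CD, so both comparisons of 2 groups in which most of the 31 genes were positive set a group with low Hox sums against CD. With the Hox level as a covariate, the median of the 31 was 0.30 in HFD against CD, -0.062 in HFD+DSS against CD+DSS, 0.29 in CD+DSS against CD and -0.019 in HFD+DSS against HFD. This covariate too came from the same libraries and differed between the groups. Position along the gut and treatment therefore cannot be told apart by that fit. Smooth muscle markers were negative in CD+DSS against CD for 8 of 8 (median -0.54) and in HFD against CD for 6 of 8 (median -0.098). They were positive in HFD+DSS against CD+DSS for 8 of 8 (median 0.88) and in HFD+DSS against HFD for 8 of 8 (median 0.36). In HFD+DSS against CD+DSS 3 were higher at an unadjusted p under 0.05 (2.77% of all genes) and 0 lower (3.84%). Their summed FPKM was 1111, 1062 and 3014 in the HFD+DSS libraries and 1216, 637 and 762 in CD+DSS, so HFD+DSS replicate 3 stood far above the others. The parts of adipocytes and smooth muscle in the results were not tested. Relative to 10 general mitochondrial genes, such as citrate synthase, the 31 genes summed to 71.7 to 83.3 per 100 FPKM in HFD+DSS, 71.2 to 85.0 in CD+DSS, 82.6 to 88.7 in HFD and 64.5 to 71.0 in CD.

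The peroxisomal thiolases diverged within the same libraries. Acaa1b made up 39.9%, 51.6% and 43.5% of the summed FPKM of Acaa1a and Acaa1b in HFD+DSS, 11.2%, 30.2% and 25.3% in CD+DSS, 43.9%, 19.7% and 50.6% in HFD and 1.24%, 1.25% and 11.8% in CD. Every HFD+DSS library was above every CD+DSS library and every HFD library above every CD library. Acaa1b (ENSMUSG00000010651, mm10 chromosome 9, 119148023 to 119157093) is known from rodent liver as the thiolase that responds to peroxisome proliferators. Of its 50-base stretches 30.5% also occur in Acaa1a, so counting may have split or dropped fragments between them. Such sharing also touches Acot2, with 24.6% of stretches in Acot1, and Hadhb, with 18.1% in the pseudogene Gm13910, itself at FPKM 31.6 to 69.4. Etfb shares 58.2% of its exon bases with Gm45233 on the same strand and Acadvl 42.9% with Dvl2 on the other strand. Gm45233 was at 0.061 or less and Dvl2 at 0.843 to 2.02, and levels of these genes are uncertain to that extent.

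Around the 31 genes, other enzymes and transporters of the pathway (39 tested of 46) and regulators with further PPAR targets (22 tested of 24) gave 0 calls by limma in HFD against CD and in CD+DSS against CD. In HFD against CD 26 of the 39 and 15 of the 22 were positive (45.9% of all genes), with medians of 0.12 and 0.15. At an unadjusted p under 0.05, 6 of the 39 and 4 of the 22 were higher (1.77% of all genes), and 1 of the 39 and 0 of the 22 were lower (2.38%). The smallest p in HFD against CD belonged to Angptl4, a secreted inhibitor of lipoprotein lipase (1.64 ± 0.31), Vnn1, a pantetheinase (2.67 ± 0.56), Abcd2, a peroxisomal fatty acid transporter (0.85 ± 0.22), and Cd36, a fatty acid translocase (1.74 ± 0.47), with limma adjusted p from 0.711 to 0.798. Angptl4 averaged 8.38 ± 1.57 in HFD+DSS, 4.27 ± 1.10 in CD+DSS, 5.49 ± 2.5 in HFD and 1.01 ± 0.598 in CD, and it rose with DSS averaged over the diets (1.01 ± 0.22, limma adjusted p = 0.0391). In CD+DSS against CD the smallest p belonged to Angptl4 (1.41 ± 0.31), Vnn1 (2.04 ± 0.56), the lipid droplet gene Plin2 (0.76 ± 0.25) and Acacb, which makes malonyl-CoA (0.71 ± 0.24), with limma adjusted p from 0.101 to 0.222.

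The receptors differed from each other. Ppara was at FPKM 2.82, 6.02 and 1.69 in the HFD+DSS libraries, 3.95, 5.81 and 4.44 in CD+DSS, 7.92, 7.89 and 8.33 in HFD and 3.39, 2.06 and 4.71 in CD. Ppara was higher in every HFD library than in any other, by 1.09 ± 0.31 over CD (limma adjusted p = 0.798), and differed by -1.12 ± 0.31 in HFD+DSS against HFD (limma adjusted p = 0.17). Ppard averaged 27.3 ± 5.38 in HFD+DSS, 27.8 ± 3.67 in CD+DSS, 19.6 ± 1.97 in HFD and 20.5 ± 2.82 in CD. Pparg averaged 23.8 ± 5.09 in HFD+DSS, 44.9 ± 21.2 in CD+DSS, 33.9 ± 7.01 in HFD and 27.0 ± 6.39 in CD, with its highest library again CD+DSS replicate 2.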

How the data were processed

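Colon RNA was purified with an RNeasy kit and made into libraries with a SMARTER kit, per the labels' protocols. The authors deposited a table of FPKM with 1 column per library, and the genome build was mm10, per the submitters' processing notes. For the aligner, counter, use of strand and annotation release, the method is not given in the sources used. Symbols, exons and positions came from GENCODE M21.

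Low FPKM stepped in whole multiples of 1 fragment. Fragments recovered from FPKM and exon length were whole within 0.1 for 97.0% to 97.2% of values. Each library's median ratio to the geometric mean over genes was 1.0087, so the deposited FPKM had been scaled to it by the authors in a step no label names, and every comparison rests on the median gene being level.

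The main fit used limma 3.58.1 under R 4.3.3, with lmFit, contrasts.fit and trended eBayes, on log2(FPKM + 1). A gene was tested where 3 or more libraries reached FPKM 1. The fit had a mean per group and no covariate, as no batch is labelled. The pseudocount of 1 makes fold changes of low genes too small. Voom on recovered fragments was the count-based alternative. The other alternatives were pseudocounts of 0.1 and 0.01, no filter or one at FPKM 5, equal FPKM totals, quantile normalization, only the groups compared, a replicate block, epithelial and posterior Hox covariates, and leaving out each library. The scripts were tested on simulated data. Fragment counts of replicate pairs differed beyond sampling noise, and each library counts as a replicate.

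All 31 genes are named, by role. Library values are given for those with the 4 smallest p in a pairwise comparison or the interaction and for the highest gene of each role. The members, marker lists and tests were chosen with earlier results of these data known.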

Additional observations from a re-analysis of the deposited data

How the results depend on the processing

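Leaving out any 1 library changed no call among the 31 genes. The median fold change then ran from 0.14 to 0.41 in HFD against CD, from -0.17 to 0.11 in HFD+DSS against CD+DSS, from 0.11 to 0.47 in CD+DSS against CD, from -0.15 to 0.072 in HFD+DSS against HFD and from -0.58 to -0.20 in the interaction, and Acsl1 kept its call averaged over the diets (-0.71 to -0.59). With the epithelial level as a covariate the median was 0.26 in HFD+DSS against CD+DSS, -0.11 in CD+DSS against CD, with 7 genes positive, -0.19 for DSS averaged and -0.099 for the interaction; 0 genes were then called for DSS averaged, and Cpt2 turned to -0.034 in CD+DSS against CD. The causes were not tested. With a filter at FPKM 5 the count for DSS averaged was 0, since Acsl1 was among the 3 genes no longer tested, and it was 0 with CD+DSS replicate 2 and HFD replicate 3 both left out, where the median of the interaction was -0.046. Same-numbered libraries of different groups did not deviate together (r of -0.46 to 0.20 over 18 pairs, 3 above 0.1). With 3 libraries per group that cannot exclude a shared day or batch. With the replicate block the count for DSS averaged was 1, as without it. The medians could not move under the block, since each replicate number occurs once in every group. Pseudocounts, scalings, voom and the Hox covariate moved no call, but the median of HFD+DSS against CD+DSS was 0.030 after quantile normalization. Depth limited Acaa1b in CD, with as few as 7 fragments in a library, and then Acot2, Acot1 and Etfb, with at least 72, 77 and 113.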
